A study of Mus musculus with 12 samples.

Results

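HMGN1-OE and wild-type (WT) myeloid cells were compared by ATAC-seq 96 h after estradiol (E2) withdrawal, over all peaks of a single peak table. The members were chosen by their sample titles: 3 HMGN1-OE libraries and 3 WT libraries at 96 h, which are 6 of the 12 libraries in the series. The other 6 libraries, 3 of each genotype at 0 h, were taken before withdrawal and are used as context. HMGN1-OE cells came from transgenic mice that overexpress human HMGN1, and WT cells from littermates of the same C57BL/6 background. Every group carries a fusion of HoxB8 and the estrogen receptor, delivered by retrovirus, which had made CD117+ marrow progenitors of each genotype grow without limit. Cells grew in interleukin 3, with E2 at 0 h and without it for 96 h. The labels call the replicates biologically independent, but how many immortalized lines were made of each genotype is not given in the sources used here, so genotype and the source of the cells cannot be told apart. The promoter that drives the transgene is likewise not given in them. As the table holds mouse peaks only, the human transgene could not be checked in these libraries, and the labelled cell type was not checked because gene positions of the build were not used here.

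HMGN1 is a nonhistone protein that binds nucleosomes without regard to DNA sequence, competes with the linker histone H1 and loosens chromatin. ATAC-seq uses a transposase that inserts sequencing adapters where DNA is free of packed nucleosomes, so that the number of reads over a peak follows how open the site is. HoxB8 keeps myeloid progenitors immature while E2 holds the fusion in the nucleus, and without E2 the cells mature along the neutrophil and macrophage paths. The comparison asks how open chromatin differs between the genotypes 96 h into differentiation.

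Peaks were 159 to 6398 bp wide, with a median of 430 bp, and 60072 were listed. Their positions are 1-based on mm9. No genes, exons or introns are named, since the annotation used here is of another build. Library totals, recovered from the values, were 31047300, 32824073 and 35560463 reads for HMGN1-OE replicates 1 to 3 at 96 h, and 27542241, 22994673 and 21581528 for WT. Replicates of a group correlated with Pearson r between 0.955 and 0.964 across peaks at 96 h, and no pair agreed within sampling noise. Values below are scaled RPKM, that is, reads relative to peak width and library size after TMM scaling, which sets the bulk of the peaks level between libraries. A peak was called at a Benjamini-Hochberg adjusted p under 0.05 in limma, on log2(scaled RPKM + 1), over the 57576 peaks that passed a filter on low reads. The added 1 makes a log2 fold change understate the change of a low peak.

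Fewer reads of the HMGN1-OE libraries fell in the listed peaks. The share was 29.5%, 28.5% and 24.7% of the library total in HMGN1-OE replicates 1 to 3, against 50.02%, 39.7% and 35.1% in WT. The groups did not overlap, and they averaged 27.6% ± 2.52 in HMGN1-OE and 41.6% ± 7.65 in WT (SD, n = 3 each). The difference of -14.0 percentage points had an exact two-sided permutation p of 0.1, the smallest that 3 libraries against 3 can give, and 0.175 after adjustment over 7 shares. WT replicate 1 stood apart from its group, and without it the difference was -9.82 percentage points. The Wilson 95% interval of a single library's share was at most ± 0.02 percentage points wide on either side, which covers counting error only. At 0 h, HMGN1-OE libraries lay above WT libraries instead, with 41.7% ± 1.94 in HMGN1-OE and 37.7% ± 2.08 in WT (SD, n = 3 each).

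**Figure D1:**
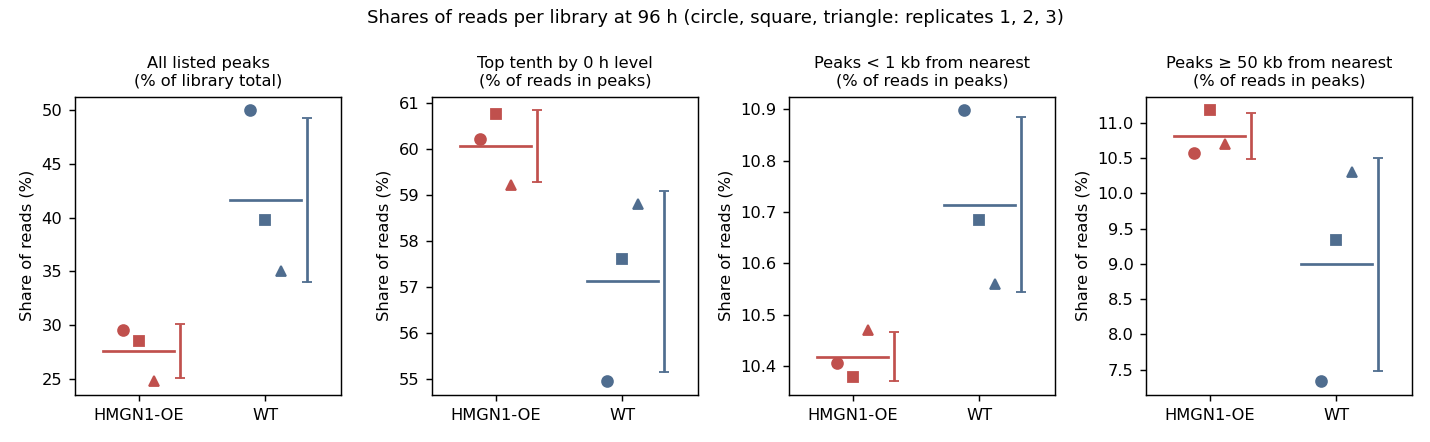
Shares of reads in each of the 6 libraries at 96 h, in percent of the library total for all listed peaks and in percent of reads in peaks for the other panels, with the y axis not starting at 0. Symbols are replicates, lines are means and error bars are SD; HMGN1-OE lies below WT for all listed peaks (27.6% against 41.6%), and WT replicate 1 (circle) lies farthest from HMGN1-OE in every panel.

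Which direction prevailed depended on the library scaling. After TMM scaling, 6195 peaks were higher in HMGN1-OE (10.8% of those tested) and 6431 were lower (11.2%). The deposited RPKM, set against each library's total, put 1161 peaks (2.02%) higher and 27013 (46.9%) lower. The median log2 fold change over all tested peaks was 0.02 after TMM scaling and -0.48 as deposited, a median shift of -0.48 between both. Without HMGN1-OE replicate 2, 744 peaks were higher as deposited. Scaling by median ratios gave 5904 higher and 6680 lower peaks, and scaling to the reads in peaks 5804 and 7078. Scaling to 1999 peaks that were steady at 0 h gave 7678 and 5919. These peaks were picked as steady after TMM scaling, so this alternative is not independent of it. The calls shared by all 5 scalings numbered 1161 higher and 5914 lower.

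The lower calls of one scaling lay within those of the other. All 6431 peaks that were lower after TMM scaling were also lower as deposited. Of the 6195 higher peaks, 1161 were higher as deposited as well, 4964 were not called there and 70 were called lower. The reverse, lower after TMM scaling and higher as deposited, was found at 0 peaks. Another 20512 peaks were lower only as deposited. No spike-in reads are listed in the table, so a global loss of accessibility and a lower share of reads in peaks for another reason cannot be told apart.

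**Figure D2:**
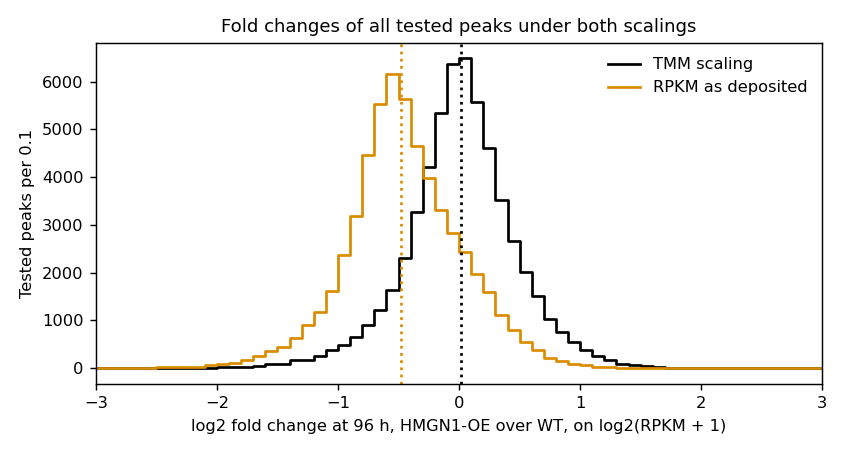
Number of tested peaks per 0.1 of log2 fold change at 96 h, HMGN1-OE over WT, after TMM scaling (black) and as deposited (orange), with dotted lines at the medians. The deposited values sit lower, with a median of -0.48 against 0.02.

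Peaks that were higher in HMGN1-OE at 96 h stood at a median of 5.10, 5.31 and 5.36 scaled RPKM in the HMGN1-OE libraries, against 2.39, 2.60 and 2.53 in the WT libraries. These same peaks had medians of 5.36 ± 0.13 in HMGN1-OE and 3.88 ± 0.03 in WT at 0 h (SD, n = 3 each). Peaks that were lower in HMGN1-OE at 96 h had medians of 4.49, 4.38 and 4.59 in HMGN1-OE libraries, against 8.85, 8.34 and 8.22 in WT libraries. At 0 h, their medians were 2.86 ± 0.11 in HMGN1-OE and 3.77 ± 0.09 in WT (SD, n = 3 each). Peaks that were not called had nearly equal medians at 96 h, 3.84 ± 0.08 in HMGN1-OE and 3.91 ± 0.08 in WT (SD, n = 3 each). The levels at 96 h describe how the sets were chosen, those of the peaks that were not called included. TMM scaling, which sets the bulk of the peaks level, also brings the latter close. The levels at 0 h come from other libraries, which entered the calls through a shared estimate of the spread.

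Most differences were modest. Among the higher peaks, 1204 had a log2 fold change under 0.5, 3866 between 0.5 and 1, 1086 between 1 and 2, and 39 of 2 or more. Among the lower peaks, the same classes held 1495, 3590, 1300 and 46 peaks. Called peaks with small changes were wide and strong, with a median width of 725.5 bp and 16.96 scaled RPKM at 0 h for higher peaks under 0.5. Called peaks with changes between 1 and 2 were narrow and weak, with a median width of 328 bp and 2.02 scaled RPKM for the higher ones. A small change can be called only where the error is small, so these widths and levels partly reflect the precision of the test. The median SE was 0.24 for tested peaks under 300 bp and 0.10 for those of 1200 bp or more. Without the test, the 3 HMGN1-OE libraries all lay above the 3 WT libraries at 10679 peaks (18.5% of those tested), and all below them at 10469 peaks (18.2%).

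The largest differences were already present at 0 h in most cases. At 0 h, 5011 tested peaks were higher in HMGN1-OE (8.7%) and 8276 lower (14.4%). The group means at 96 h use none of the 0 h libraries. Both tests share an estimate of the spread from all 12 libraries, however, so the calls at both times are not independent. As deposited the balance at 0 h turned, with 8159 higher and 1502 lower, and the counts that follow are after TMM scaling at both times. Of the 39 peaks with a log2 fold change of 2 or more at 96 h, 36 (92.3%) were also higher at 0 h and 0 were lower. Of the 46 peaks at -2 or less, 30 (65.2%) were also lower at 0 h and 0 were higher. For the higher peaks with changes under 0.5, only 13.1% were higher at 0 h and 40.4% were lower there. Among lower peaks with changes under 0.5, 22.1% were lower and 5.3% higher at 0 h.

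The 10 peaks with the largest increase had log2 fold changes of 2.42 to 3.6 and lay on 9 chromosomes. They were 284 to 756 bp wide. First among them was a 756 bp peak on chromosome 12 from 26829959 to 26830714, with 23.79, 22.51 and 21.25 scaled RPKM in HMGN1-OE libraries at 96 h, against 0.95, 0.73 and 1.15 in WT libraries. Thus the site was open in every HMGN1-OE library and almost closed in every WT library, at a ratio of means of 23.8 (log2 fold change of 3.6 with an SE of 0.15, limma adjusted p = 5.49e-12). It was nearly as far apart at 0 h, with 14.97 ± 0.25 in HMGN1-OE and 0.40 ± 0.13 in WT (SD, n = 3 each). Next came a 314 bp peak on chromosome 6 from 135181717 to 135182030, with 10.54, 10.69 and 12.50 in HMGN1-OE, against 0.24, 0.38 and 0.15 in WT. Its ratio of means was 43.9, the highest of the 10 (limma adjusted p = 1.53e-09, for a log2 fold change of 3.29 ± 0.19 SE). This was the 1 peak with at most 3 reads in every WT library and at least 30 in every HMGN1-OE library, and 0 peaks met the reverse condition.

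The WT libraries differed in spread between other peaks of this set. On chromosome 8 from 81551924 to 81552232, HMGN1-OE libraries had 22.20, 21.98 and 20.56 scaled RPKM, against 1.76, 0.38 and 2.35 in WT libraries. The HMGN1-OE values stayed within a narrow range and the WT values were low but spread (limma adjusted p = 1.60e-08, for a log2 fold change of 3.27 ± 0.23 SE). On chromosome 7 from 18987953 to 18988666, values were 9.50, 9.90 and 7.20 in HMGN1-OE, against 0.35, 0.22 and 0.27 in WT. That site was almost closed in all 3 WT libraries (log2 fold change 2.94, SE 0.18), and at 0 h it stood even higher in HMGN1-OE, at 12.55 ± 1.04, with 0.34 ± 0.13 in WT (SD, n = 3 each).

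At 2 peaks of the set WT cells had clear signal at 0 h, and the genotypes lay further apart at 96 h. The peak on chromosome 1 from 62794384 to 62794667 had 20.22, 24.05 and 19.24 scaled RPKM in HMGN1-OE at 96 h, against 2.35, 2.64 and 0.85 in WT (log2 fold change 2.96, SE 0.21). At 0 h it averaged 16.57 ± 1.27 in HMGN1-OE and 4.34 ± 1.62 in WT (SD, n = 3 each). The fold change at 96 h exceeded that at 0 h by 1.21 (limma interaction adjusted p = 8.31e-03). The peak on chromosome 5 from 138721045 to 138721723 had 30.49, 25.52 and 27.90 in HMGN1-OE, against 2.84, 5.23 and 3.78 in WT. It had the highest HMGN1-OE mean of the 10, and at 0 h it stood at 35.22 ± 0.86 in HMGN1-OE and 9.26 ± 0.30 in WT (SD, n = 3 each). Its fold change at 96 h exceeded that at 0 h by 0.75 (limma interaction adjusted p = 6.70e-03). The other 4 peaks of the set lay on chromosomes 4, 10, 2 and 5, and all 10 were higher in HMGN1-OE at 0 h as well.

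The 10 peaks with the largest decrease had log2 fold changes of -3.78 to -2.56 and lay on 7 chromosomes, 3 of them on chromosome 12. They were 510 to 849 bp wide. At the top was a 608 bp peak on chromosome 7 from 29478407 to 29479014, with 3.28, 3.51 and 3.20 scaled RPKM in HMGN1-OE libraries, against 55.38, 58.81 and 61.55 in WT libraries. No other peak of the set was as strong in WT, and the WT mean was 17.6 times the HMGN1-OE mean (limma adjusted p = 3.66e-15, for a log2 fold change of -3.78 ± 0.10 SE). The gap was a little wider at 0 h, with 2.12 ± 0.11 in HMGN1-OE and 64.41 ± 8.58 in WT (SD, n = 3 each).

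2 peaks on chromosome 12 were closed in HMGN1-OE at both times. From 17516683 to 17517392, HMGN1-OE libraries had 0.00, 0.28 and 0.46 scaled RPKM, against 10.18, 10.67 and 9.68 in WT libraries. From 18616535 to 18617159, values were 0.38, 0.25 and 0.00 in HMGN1-OE, against 6.69, 8.46 and 10.22 in WT. HMGN1-OE replicate 1 had 0 reads at the first site and HMGN1-OE replicate 3 had 0 reads at the second, and the WT means were 41.6 and 39.9 times those of HMGN1-OE. The second site lay 184.5 kb from its nearest listed peak. On chromosome 1 from 186134055 to 186134696, HMGN1-OE libraries had 0.62, 0.61 and 0.44, against 17.32, 19.42 and 17.80 in WT, so this site too was all but closed in HMGN1-OE (limma adjusted p = 7.22e-12, for a log2 fold change of -3.62 ± 0.15 SE).

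At 3 of the 10 decreases the gap was much wider at 96 h than at 0 h. These sites were low in both genotypes at 0 h and high at 96 h in WT. On chromosome 17 from 24103831 to 24104388, HMGN1-OE had 3.15, 3.61 and 2.03 scaled RPKM, against 24.45, 25.60 and 22.47 in WT. At 0 h the site averaged 1.31 ± 0.16 in HMGN1-OE and 1.89 ± 0.54 in WT (SD, n = 3 each), with a log2 fold change of -0.31 that did not pass the test (limma adjusted p = 0.255). It was the 1 peak of the 10 that was not called lower at 0 h. On chromosome 4 from 104621576 to 104622110, values were 1.12, 2.14 and 1.66 in HMGN1-OE, against 18.10, 20.88 and 18.19 in WT. At 0 h that site was low in both genotypes, with 0.32 ± 0.13 in HMGN1-OE and 1.83 ± 0.23 in WT (SD, n = 3 each). On the same chromosome from 119638921 to 119639738, values were 3.07, 2.80 and 2.57 in HMGN1-OE, against 22.28, 23.25 and 25.39 in WT, and at 0 h 0.28 ± 0.08 in HMGN1-OE and 1.69 ± 0.21 in WT (SD, n = 3 each). The change in fold between the times was -2.39, -1.84 and -1.62 for these 3 peaks, each called by the interaction test in limma (adjusted p of 1.50e-05, 1.57e-04 and 1.40e-04).

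**Figure D3:**
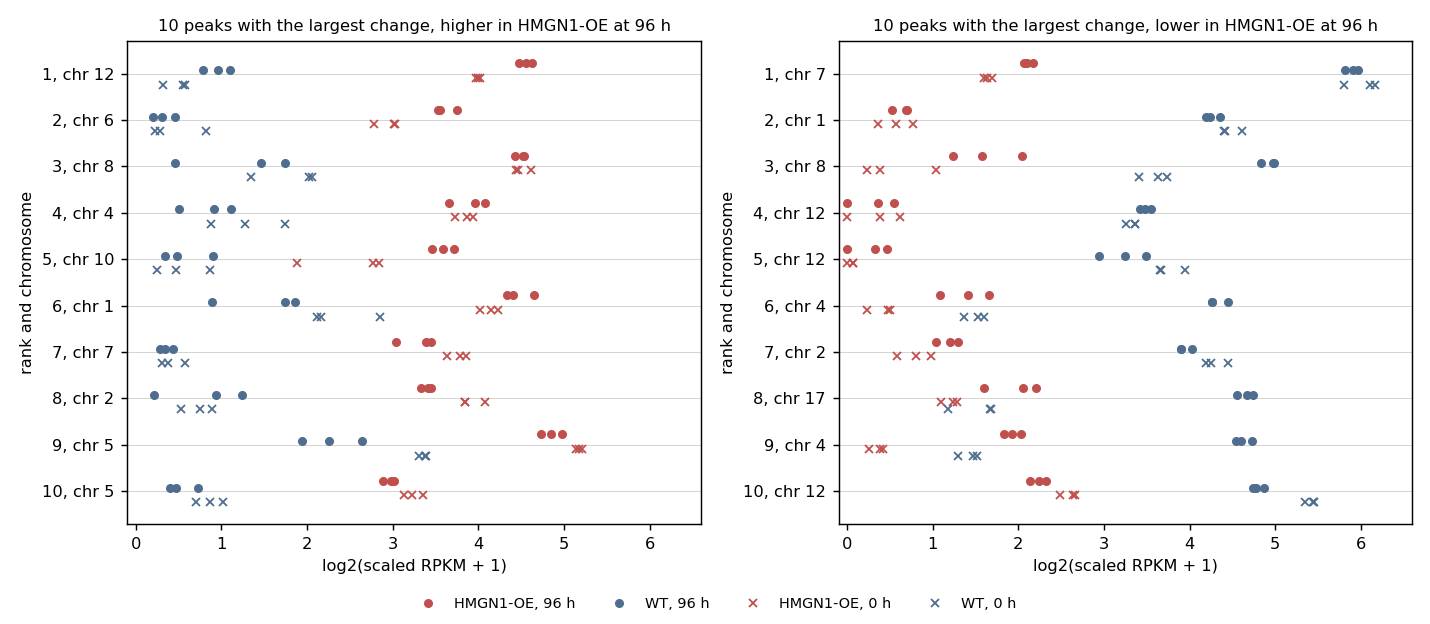
Levels, as log2(scaled RPKM + 1), in all 12 libraries for the 10 peaks with the largest increase (left) and decrease (right) in HMGN1-OE at 96 h, in rows by rank and chromosome. Filled circles are 96 h and crosses 0 h; red is HMGN1-OE and blue is WT, and the 2 genotypes do not overlap at 96 h in any of the 20 peaks.

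All 20 peaks were called in the same direction under all 5 scalings. With each library left out in turn, the largest adjusted p among them was 2.47e-06 (limma). The 20 were picked as the largest called changes without overlap, so neither result is independent of that choice.

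Of the 6 widest called peaks, 2 differed by about 1 on the log2 scale and the other 4 by less than 0.5. Of the higher ones, a peak of 2376 bp on chromosome 5 from 109985739 to 109988114 stood out, with 93.08, 94.74 and 91.19 scaled RPKM in HMGN1-OE, against 41.85, 48.68 and 48.14 in WT. Few peaks of such width differed as much (limma adjusted p = 5.43e-08, for a log2 fold change of 1.0 ± 0.08 SE), while at 0 h it averaged 70.75 ± 4.37 in HMGN1-OE and 60.31 ± 5.74 in WT (SD, n = 3 each). Wider still was a peak of 3080 bp on chromosome 5 from 108152890 to 108155969, with 11.99, 11.28 and 11.88 in HMGN1-OE, against 8.79, 8.69 and 10 in WT. Its log2 fold change of 0.33 was -0.23 as deposited, and it lost its call without HMGN1-OE replicate 1 or 3 or WT replicate 1 or 2 (largest limma adjusted p 6.87e-02). Of the lower ones, the peak of 2686 bp on chromosome 8 from 87500161 to 87502846 had 24.83, 22.14 and 22.83 in HMGN1-OE, against 29.97, 31.43 and 35.52 in WT (limma adjusted p = 4.97e-04, for a log2 fold change of -0.45 ± 0.08 SE). It did not pass the test at 0 h, with 20.04 ± 0.68 in HMGN1-OE and 20.81 ± 0.71 in WT (SD, n = 3 each).

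The remaining wide peaks had smaller log2 fold changes than the 2376 bp peak on chromosome 5. The 2356 bp peak on chromosome 11 from 3000950 to 3003305 had 32.56, 34.18 and 40.05 scaled RPKM in HMGN1-OE, against 11.60, 22.63 and 21.51 in WT, with a log2 fold change of 0.95 at 96 h and -0.83 at 0 h. WT replicate 1 was lowest, and the peak was not called as deposited. With the share of reads in peaks as a covariate, an alternative chosen after the data were seen, the log2 fold change was -0.05. The 2552 bp peak on chromosome 19 from 5793194 to 5795745 had 18.75, 19.03 and 19.33 in HMGN1-OE, against 21.44, 26.03 and 27.01 in WT. Its log2 fold change of -0.36 lost its call without WT replicate 2 or 3. The 2452 bp peak on chromosome 12 from 85515138 to 85517589 had 10.75, 10.93 and 10.17 in HMGN1-OE, against 14.85, 14.53 and 13.31 in WT, with a log2 fold change of -0.39.

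The 3 called peaks with the highest level that were higher in HMGN1-OE were far stronger than the other called peaks named here, and WT replicate 1 lay far below the other WT libraries at each of them. The strongest, on chromosome 2 from 98506405 to 98507475, had 3139, 3350 and 3755 scaled RPKM in HMGN1-OE, against 1421, 2504 and 2669 in WT. WT replicate 1 was also the library with the highest share of reads in peaks. In each of the 4 groups, the order of the 3 libraries at this strongest peak was the reverse of their order by that share. TMM scaling divides by factors of 0.81, 0.77 and 0.69 in HMGN1-OE and 1.47, 1.10 and 0.96 in WT at 96 h. These rank the libraries as the share of reads in peaks does, in all 4 groups. Even deposited values would thus take the reverse order by scaling alone, also at this strongest peak. Its log2 fold change was 0.69 (SE 0.22, limma adjusted p = 4.78e-02), and it lost its call without HMGN1-OE replicate 2 or 3. At 0 h the direction was the opposite, with 1484 ± 235.0 in HMGN1-OE and 2507 ± 320 in WT (SD, n = 3 each). The other 2 such peaks, on chromosome 9 from 35112804 to 35113176 and on chromosome 2 from 98502399 to 98503096, had log2 fold changes of 0.76 and 0.71 and were likewise lower at 0 h (-0.81 and -0.76), and both lost their call without HMGN1-OE replicate 3. The one on chromosome 2 lost it without HMGN1-OE replicate 2 as well, and without WT replicate 1 the 3 fold changes were 0.40, 0.48 and 0.43, still called. With the share of reads in peaks as a covariate, the 3 peaks had log2 fold changes of -0.35, -0.28 and -0.32.

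The peak with the most reads of all was singled out after its values were seen. This peak of 5664 bp on chromosome 17 from 39980030 to 39985693 alone held 7.16%, 7.65% and 7.20% of the reads in peaks in HMGN1-OE libraries, against 4.37%, 6.15% and 6.99% in WT libraries. WT replicate 1 was again lowest. The log2 fold change of 0.39 did not pass the test (limma adjusted p = 0.122), was -0.22 as deposited and was 0.16 without WT replicate 1. It was called without WT replicate 3, at 0.55. Its sequence content was not examined here.

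Among strong peaks that were lower in HMGN1-OE, 2 lay close together on chromosome X. From 166428959 to 166429678, values were 105.2, 105.2 and 106.5 scaled RPKM in HMGN1-OE, against 132.2, 151.9 and 155.8 in WT. From 166434934 to 166436516, they were 120.3, 118.5 and 116.7 in HMGN1-OE, against 131.0, 151.2 and 154.5 in WT. HMGN1-OE libraries were tightly grouped at both sites and all below the WT libraries. The log2 fold changes were -0.47 (SE 0.06) and -0.29 (SE 0.07), with limma adjusted p of 4.17e-05 and 5.55e-03. Only the second one was also lower at 0 h (log2 fold change -0.41).

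The peak of next highest level, on chromosome 8 from 125566120 to 125566818, had 78.86, 75.91 and 68.38 scaled RPKM in HMGN1-OE, against 81.11, 85.53 and 89.75 in WT. The gap between the genotypes was narrow, and the log2 fold change of -0.20 lost its call without HMGN1-OE replicate 2 or 3 or WT replicate 2 or 3.

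By width, the share of peaks called differed little after TMM scaling. Among peaks under 300 bp, 10.4% were higher and 10.5% lower in HMGN1-OE. Among those of 1200 bp or more, 8.02% were higher and 9.92% lower. The spread of the fold changes differed more, with an SD of 0.53 for peaks under 300 bp and 0.29 for peaks of 1200 bp or more. The error differed too, with a median SE of 0.24 for the narrow peaks and 0.10 for the wide ones. A log2 fold change of at least 1 in either direction was found at 479 higher and 538 lower peaks under 300 bp, out of 15034, and at 8 higher and 6 lower peaks of 1200 bp or more, out of 1834. In limma-voom on recovered reads, which weights each value by its precision, the order turned round, with 8.1% higher and 8.74% lower under 300 bp, and 13.9% higher and 15.8% lower at 1200 bp or more. As deposited, 36.0% of the narrow peaks and 76.0% of the wide peaks were lower.

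By level, lower calls outnumbered higher calls in the weakest peaks, and higher calls outnumbered lower calls in the strongest. Peaks were split into quintiles by their mean level in the 6 libraries at 0 h. These give no values to the group means at 96 h, but they enter the shared estimate of the spread. The lowest quintile had 10.1% of its peaks higher and 16.4% lower in HMGN1-OE, with a median log2 fold change of -0.10. In the top quintile, 14.0% were higher and 10.4% lower, with a median of 0.03. Peaks of the lowest quintile had a median of 0.80 scaled RPKM at 0 h, and 57.1% of them passed the filter on low reads only with the help of the 96 h libraries. Among the 4945 that passed on the 0 h libraries alone, a subset chosen after the data were seen, 8.63% were higher and 15.2% lower. Of the changes of at least 1 in log2 in that quintile, 435 were increases and 763 decreases. In the top quintile, 94 were increases and 27 decreases. The balance of higher minus lower peaks differed by 9.96 percentage points between the top and lowest quintiles, by 6.22 points without HMGN1-OE replicate 1 and by 5.78 points without WT replicate 1. With the share of reads in peaks as a covariate it was 0.61 points. As deposited the difference was -33.1 points, since 74.9% of the top quintile and 44.1% of the lowest were lower.

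By the distance to the nearest listed peak, higher calls outnumbered lower calls at the most isolated peaks, and lower calls outnumbered higher calls most at gaps of 1 to 5 kb. The differences between classes are given as counts and were not tested. Of 2864 peaks with a gap of 50 kb or more, 14.1% were higher and 7.86% lower in HMGN1-OE, with a median log2 fold change of 0.13. Of 16194 peaks with a gap of 1 to 5 kb, 10.6% were higher and 14.3% lower, with a median of -0.03. The closest peaks, under 1 kb from another, were nearly even, with 11.9% higher and 12.8% lower and a median of 0.01, and had more higher than lower calls after cyclic loess (13.1% and 12.5%). In between, peaks at 5 to 20 kb were nearly even, with 2543 higher and 2491 lower, and peaks at 20 to 50 kb leaned higher, with 11.4% and 8.15%. Isolated peaks were narrower and weaker at the median than the other gap classes, with a median width of 380 bp and 2.94 scaled RPKM in HMGN1-OE and 2.79 in WT at 96 h. Within quintiles of the 0 h level, the isolated peaks had more higher than lower calls in each quintile, from 13.5% and 11.4% in the lowest to 23.7% and 3.48% in the top quintile. As deposited, 32.6% of isolated peaks and 51.6% of peaks at 1 to 5 kb were lower.

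At isolated peaks the size of the balance depended on WT replicate 1. It differed from that of peaks at 1 to 5 kb by 9.95 percentage points, and by 5.58 points without WT replicate 1. The order of libraries was the reverse of that by the share of reads in peaks, within both genotypes at 96 h, at 5.59% of isolated peaks and at 2.97% of all tested peaks. It ran the same way at 1.57% of isolated peaks and 2.97% of all. Many other orders are possible, so most peaks of any class follow neither the share of reads in peaks nor its reverse. With that share as a covariate, the median log2 fold change of isolated peaks was -0.004, and the balance differed by 0.16 points. The share of reads in isolated peaks, 10.8% ± 0.32 of reads in peaks in HMGN1-OE and 8.99% ± 1.52 in WT (SD, n = 3 each; exact permutation p = 0.1), includes the chromosome 17 peak with the most reads. The difference of 1.82 points was 0.995 points without WT replicate 1. Without the 200 peaks of highest level, the shares were 3.09%, 3.19% and 3.18% in HMGN1-OE, against 2.75%, 2.90% and 3.00% in WT, and the groups still did not overlap.

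**Figure D4:**
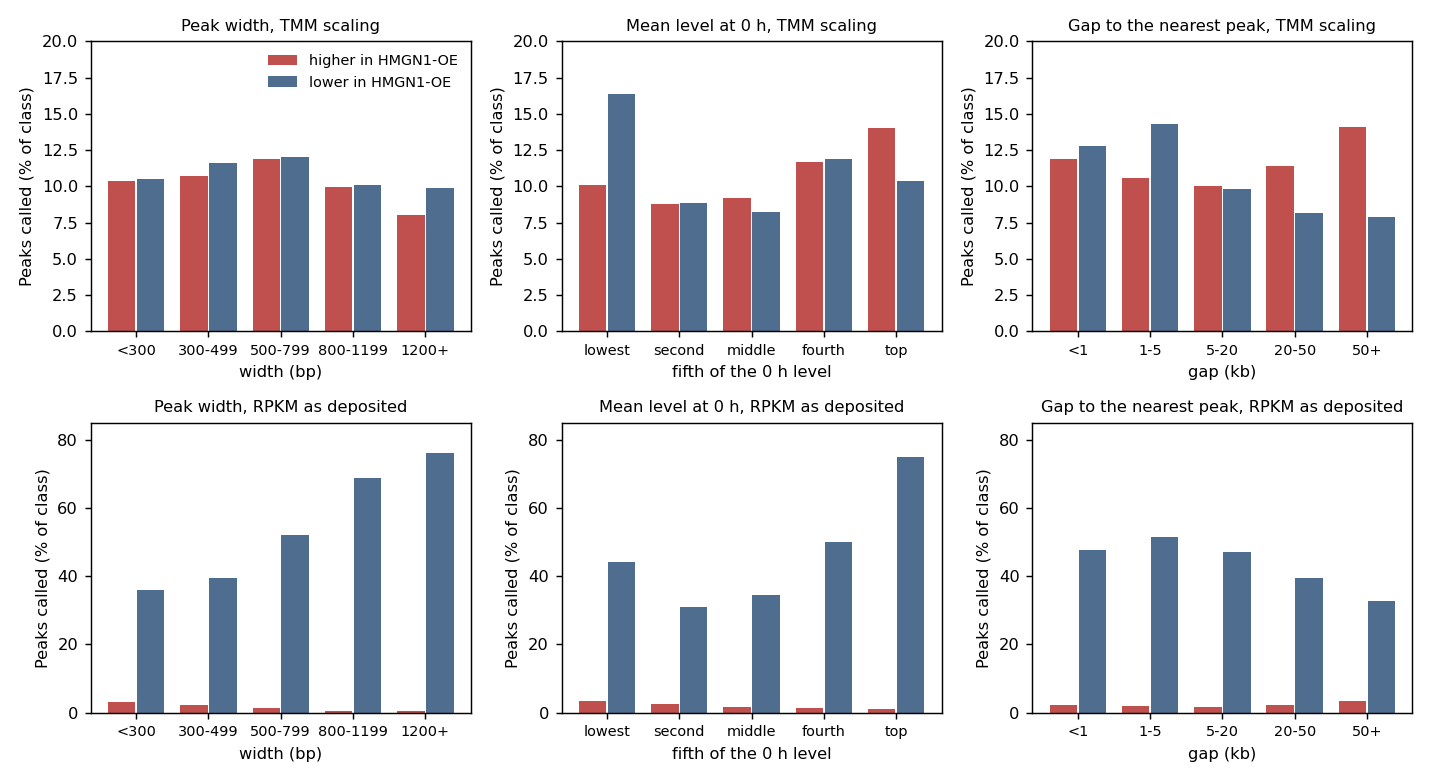
Share of peaks called higher (red) or lower (blue) in HMGN1-OE at 96 h, in percent of each class, by peak width, by quintile of the mean level at 0 h and by gap to the nearest listed peak, after TMM scaling (top) and as deposited (bottom, other y range). After TMM scaling lower calls lead in the lowest level quintile (16.4% against 10.1% higher) and higher calls lead at gaps of 50 kb or more (14.1% higher against 7.86% lower); as deposited lower calls lead in every class.

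Among the most isolated called peaks, a peak on chromosome 5 from 60387879 to 60388294 lay 1696.5 kb from its neighbour. It had 12.08, 14.43 and 13.91 scaled RPKM in HMGN1-OE, against 21.25, 26.09 and 25.83 in WT (limma adjusted p = 2.57e-05, for a log2 fold change of -0.81 ± 0.11 SE). The site was lower at 0 h too, with 4.84 ± 0.13 in HMGN1-OE and 12.98 ± 1.22 in WT (SD, n = 3 each), and it stood higher at 96 h than at 0 h in both genotypes. Among isolated increases, the site on chromosome 11 from 47471827 to 47472085, 1026.3 kb from its neighbour, had 1.69, 2.59 and 1.56 in HMGN1-OE, against 0.48, 0.46 and 0.56 in WT (limma adjusted p = 4.01e-03, for a log2 fold change of 0.96 ± 0.22 SE). Both were called under all 5 scalings, but the chromosome 11 site rests on few reads, 11, 17 and 10 in HMGN1-OE and 5, 3 and 3 in WT. The peak on chromosome 5 from 82688611 to 82688826 had a log2 fold change of 0.59, which was 0.11 as deposited, and kept its call only without HMGN1-OE replicate 1 among the 6 libraries left out in turn. The peak on chromosome 4 from 39060262 to 39060769 had 0.58, which was 0.06 as deposited, and lost its call without HMGN1-OE replicate 1 or 3 or WT replicate 1 or 2.

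A pair of isolated peaks were lower in HMGN1-OE from different starting levels. On chromosome 16 from 6686301 to 6686649, values were 0.57, 1.36 and 1.04 scaled RPKM in HMGN1-OE, against 2.20, 2.94 and 2.36 in WT, and WT cells were already higher at 0 h (log2 fold change -1.71). Reads at that site at 96 h were few, with 5, 12 and 9 in HMGN1-OE and 31, 26 and 17 in WT. On chromosome 13 from 79297997 to 79298400, values were 2.27, 3.13 and 1.90 in HMGN1-OE, against 5.03, 5.86 and 5.39 in WT. At 0 h that site was nearly closed in both genotypes, with 0.39 ± 0.12 in HMGN1-OE and 0.43 ± 0.15 in WT (SD, n = 3 each).

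Neighbouring peaks had more similar fold changes the closer they lay. Across 3572 pairs of adjacent tested peaks less than 1 kb apart, the log2 fold changes of both peaks correlated with Pearson r of 0.41. The r was 0.23 at 1 to 5 kb, 0.17 at 5 to 20 kb, 0.16 at 20 to 50 kb and 0.12 at 50 kb or more. These are correlations across peaks that share the same 6 libraries, so they are a description. Where both peaks of a pair under 1 kb were called, 126 pairs were both higher, 147 both lower and 51 opposite, so that 84.3% went the same way. At 50 kb or more, 183 pairs were both higher, 93 both lower and 138 opposite, with 66.7% the same way. At 0 h the r was 0.37 under 1 kb and 0.12 at 50 kb or more.

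**Figure D5:**
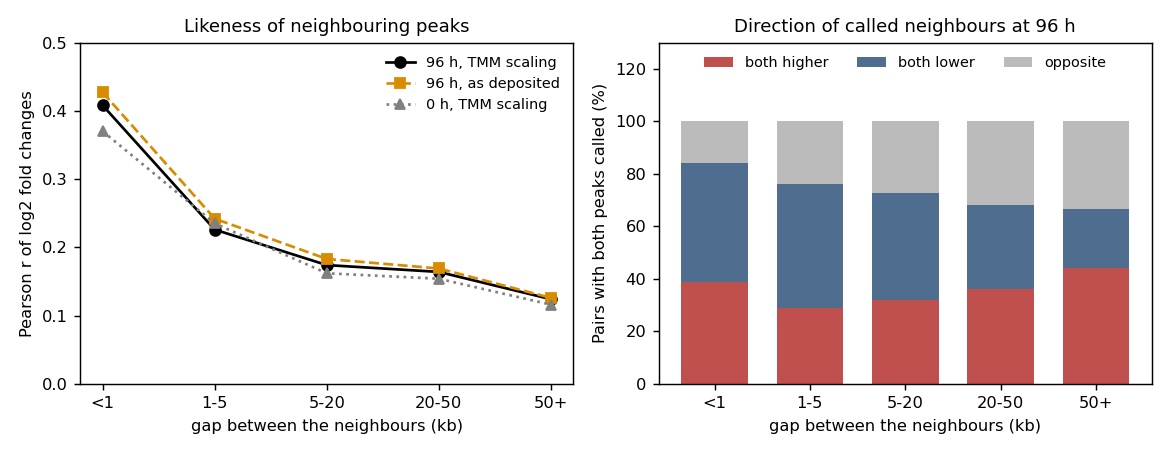
Left, Pearson r of the log2 fold changes (HMGN1-OE over WT) of adjacent tested peaks against the gap between them, at 96 h after TMM scaling (black), at 96 h as deposited (orange) and at 0 h (grey). Right, pairs with both peaks called at 96 h, in percent by direction; the share that went the same way was 84.3% under 1 kb and 66.7% at 50 kb or more.

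Most called peaks stood alone. Of 5232 runs of adjacent higher peaks, 4520 were single peaks and 138 held 3 peaks or more, 527 peaks in all. Of 5208 runs of lower peaks, 4283 were single and 213 held 3 or more, 724 peaks in all. The longest runs of higher peaks were longer than those of lower peaks, with 20 peaks against 8.

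In the 3 longest higher runs the mean scaled levels ran opposite to the share of reads in peaks. TMM scaling alone would give that order to even deposited values. On chromosome 9 from 3000004 to 3038227, at the start of the assembled chromosome, all 20 peaks were higher, with means over the run of 116.6, 127.3 and 144.3 scaled RPKM in HMGN1-OE, against 47.15, 84.57 and 87.28 in WT. At 0 h all 20 were lower instead, with 55.47, 52.78 and 38.09 in HMGN1-OE, against 89.29, 108.5 and 83.83 in WT. In all 4 groups the order of these means was the reverse of that by the share of reads in peaks. At 96 h, 15 of the 20 single peaks had the reverse order in both genotypes. With the share of reads in peaks as a covariate, the median log2 fold change of the run was -0.19, in place of 0.86. Of the 20 peaks, 2 kept their sign and none was called. As deposited, 4 of the 20 were called.

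The other 2 higher runs lay close to each other on chromosome 5. From 14945197 to 15053174, 17 peaks averaged 3.48, 3.72 and 4.15 scaled RPKM in HMGN1-OE, against 0.62, 1.09 and 1.56 in WT. From 15116904 to 15211622, 15 peaks averaged 3.42, 3.98 and 4.15 in HMGN1-OE, against 0.59, 1.17 and 1.41 in WT. WT replicate 1 was lowest in both, and the order of the averages again reversed that of the share of reads in peaks in all 4 groups. Single peaks had the reverse order in both genotypes at 96 h at only 1 of 17 and 1 of 15. The median log2 fold changes were 1.20 and 1.24, and 14 peaks of each run were higher as deposited too. With the covariate they were 0.58 and 0.46, 16 of 17 and 14 of 15 peaks kept their sign, and no peak of either run was called. At 0 h the medians were 0.21 and 0.17, and no peak was called.

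In the 3 longest lower runs the levels did not run in that order in all 4 groups. On chromosome 12 from 76378410 to 76415279, 8 peaks averaged 2.66, 2.92 and 2.81 scaled RPKM in HMGN1-OE, against 6.37, 6.55 and 7.28 in WT, and 7 of them were lower at 0 h as well. On chromosome 5 from 17345472 to 17386077, 6 peaks averaged 2.27, 2.79 and 2.78 in HMGN1-OE, against 7.66, 7.96 and 8.96 in WT. At 0 h that run was low in both genotypes, with 0.45, 0.78 and 0.71 in HMGN1-OE, against 1.40, 1.79 and 1.91 in WT. On chromosome 5 from 143660785 to 143682981, 6 stronger peaks averaged 28.72, 26.97 and 27.09 in HMGN1-OE, against 39.53, 40.63 and 41.53 in WT. In each run all HMGN1-OE libraries lay below all WT libraries, and all peaks were lower as deposited. With the covariate, the median log2 fold changes were -1.10, -1.52 and -0.99, in place of -0.95, -1.42 and -0.97, and 2 of 8, 3 of 6 and 3 of 6 peaks were called. The repeat content of these runs was not tested.

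Over all tested peaks, 76.5% of fold changes kept their sign with the covariate, 70.6% of those at peaks that were not called, and the error was larger. The median SE was 0.37 with it and 0.19 without it, and 370 higher and 430 lower peaks were called. Of the 6195 higher peaks, 96.2% kept their sign and 332 their call, and the median log2 fold change was 0.60, in place of 0.72. Of the 6431 lower peaks, 98.8% kept their sign and 418 their call, with a median of -0.62 in place of -0.71. The 20 peaks with the largest changes were all called with the covariate as well. How far the share of reads in peaks accounts for the calls that were lost was not tested beyond this fit.

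Differences were spread over the genome. On chromosomes 1 to 19 and X, the share of tested peaks that were higher ranged between 9.23% on chromosome 19 and 12.5% on chromosome 6, and the share that were lower between 8.58% on chromosome X and 13.5% on chromosome 19. Median log2 fold changes lay between -0.03 and 0.05 on every chromosome.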

How the data were processed

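ATAC-seq libraries were made by the Omni-ATAC protocol. The authors aligned reads with BWA to mm9 and called peaks with MACS in the ChiLin pipeline, and they deposited 1 table of RPKM values for 12 libraries over a common set of peaks. How peaks of the libraries were merged, which reads the library size counts, and whether read ends were shifted or duplicates removed are details not given in the sources used. RPKM times peak width gave whole reads at a tolerance of 0.001 for 100.0% of values. Tested peaks had at least 10 reads in at least 3 libraries, after reads were set relative to the median number of reads in peaks. They also had at least 15 reads in total, and 2496 peaks were left out. RPKM values were scaled by TMM (trim of 30% on ratios and 5% on levels), and limma 3.58.1 in R 4.3.3 was fitted with trended, robust variances to log2(scaled RPKM + 1) over 12 libraries in 4 groups. Shares were compared by exact permutation over libraries, in Python 3.11.15 with numpy 2.4.6 and scipy 1.17.1; figures used matplotlib 3.10.9. P-values measure the spread between the labelled replicates only.

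Named peaks were called, had no overlap between genotypes and were, in each direction, the 10 largest changes above the median level (at most 1 per 200 kb window), the 3 widest, the 3 of highest level and the 3 most isolated, with the 3 longest runs. Members, rules and classes were chosen with earlier results of these data known. Alternatives were other scalings, pseudocounts, filters, limma-voom, cyclic loess, a replicate block, and each library left out. After the data were seen, shares without the 200 highest peaks, the block with only the libraries at 96 h, classes over peaks that pass the filter at 0 h alone, deposited values without each library and the share of reads in peaks as a covariate were added. Gene lists and sequences were not used here, since the reference tables are of another build.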

Additional observations from a re-analysis of the deposited data

Results flagged for a closer look

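Several shares of reads had genotype differences of other size or sign at 96 h than at 0 h. Permuting genotype within each time gave 400 arrangements, with a smallest possible p of 0.005. It tests for a genotype difference at either time, so a small p can come from a single time and does not test a change between them. The difference in the share of reads in all listed peaks, HMGN1-OE minus WT, changed by -18.0 percentage points (-14.0 at 96 h and 4.0 at 0 h, exact permutation p = 0.005, 0.0117 adjusted over 7 shares). Shares of reads in peaks changed by 6.94 points for the top decile by 0 h level (exact permutation p = 0.005), by -0.649 points for peaks under 1 kb from the nearest (exact permutation p = 0.005), by -1.68 points for peaks below the median 0 h level (exact permutation p = 0.01) and by -0.658 points for peaks under 300 bp (exact permutation p = 0.025). All 5 had adjusted values of at most 0.035.

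Among named peaks, the log2 fold change at 96 h minus that at 0 h passed the interaction test in limma at 20. The peaks were named for their change at 96 h, so the signs are not independent of that choice. Of higher peaks, the difference was 1.04 for the peak starting at 21696109 of chromosome 10, and 1.21 for the one at 62794384 of chromosome 1. Chromosome 5 held 3 such peaks, with 0.75 (start 138721045), 0.77 (start 109985739) and 1.02 (start 82688611), and chromosome 4 held 1 with 0.85 (start 39060262). The difference reached 1.79 for the peak starting at 3000950 of chromosome 11, 1.45 and 1.47 for those at 98506405 and 98502399 of chromosome 2, and 1.58 for the one at 35112804 of chromosome 9. These 4 peaks were lower in HMGN1-OE at 0 h.

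Of lower peaks, 3 had a smaller gap at 96 h than at 0 h, with differences of 0.60 (chromosome 7, start 29478407), 0.75 (chromosome 2, start 174120683) and 0.45 (chromosome 5, start 60387879). The gap was larger at 96 h at 7 lower peaks, with differences of -2.39 (chromosome 17, start 24103831), -1.84 and -1.62 (chromosome 4, starts 104621576 and 119638921), -0.88 (chromosome 13, start 79297997) and -0.56 (chromosome 12, start 85515138). It was -0.40 for both the chromosome 8 peak starting at 87500161 and the chromosome X peak starting at 166428959.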

How the results depend on the processing

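At 96 h, 5804 to 7678 higher and 5919 to 7078 lower peaks were called under the scalings other than the deposited one, which gave 1161 and 27013. Other filters, pseudocounts, loess and voom gave 5769 to 6782 higher and 5341 to 7376 lower. With a minimum log2 change of 1 there were 1125 higher and 1346 lower peaks, and with the share of reads in peaks as a covariate 370 and 430. With each library left out, counts were 4286 to 5641 higher and 4415 to 5704 lower, and as deposited 744 to 1346 higher and 18249 to 32091 lower, with the fewest higher without HMGN1-OE replicate 2. At 0 h the deposited values gave 8159 higher and 1502 lower. Deviations of same-numbered libraries over all peaks had r of 0.038, 0.004 and -0.011. This does not decide whether the numbers pair them, as the share of reads in peaks fell from replicate 1 to 3 in both genotypes at 96 h. The replicate block gave 6154 higher and 6323 lower peaks. With only the 6 libraries at 96 h, 5200 higher and 6284 lower peaks were called without the block, and 5087 and 6169 with it. Without the 200 highest peaks, the share differences were 0.033 points for peaks of 1200 bp or more, -0.165 under 1 kb and 0.267 at 50 kb or more. The share under 300 bp differed by -0.184 to 0.022 points with each library left out, positive without WT replicate 1. The level balance was -33.1 points as deposited, 0.61 with the covariate and 5.78 to 11.55 with each library left out. The gap balance was 20.6, 0.16 and 5.58 to 11.48 points in the same order. The width balance of -1.82 points was -42.4 as deposited, 0.68 with loess, -3.10 with a pseudocount of 0.25, -0.53 with the covariate, -3.40 over peaks that pass the filter on the 0 h libraries alone (the level and gap balances were then 10.23 and 11.02) and -3.38 to 0.80 with each library left out, positive without HMGN1-OE replicate 3. As deposited, peaks on chromosome 5 at 108152890 and chromosome 17 at 39980030 turned to -0.23 and -0.22, and the second was -0.07 with loess and -0.32 with the covariate. The covariate also turned the peaks on chromosome 11 at 3000950 (-0.05), chromosome 2 at 98506405 and 98502399 (-0.35 and -0.32) and chromosome 9 at 35112804 (-0.28). Of 758 values of the 38 named peaks, 690 kept direction and call, 63 kept direction only and 5 were reversed. The cause of these shifts was not tested. Peaks at a few reads set the limit: 1 scaled RPKM is 8.88 to 17.37 reads at the median width.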
